A study of Homo sapiens with 6 samples.

Results

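HBP-ALL, a T-cell acute lymphoblastic leukemia (T-ALL) line, was set against 5 other T-ALL lines by the regions of open chromatin that set it apart. Overlapping intervals of the 6 deposited ATAC-seq peak lists were merged into 40110 regions on chromosomes 1 to 22 and X. The regions described are of 2 kinds. HBP-ALL-only regions hold an interval of HBP-ALL and of none of the other 5 lines, and there were 4654 of them. Regions missed by HBP-ALL alone hold intervals of all 5 other lines and none of HBP-ALL, and there were 296. Together these 4950 regions were chosen by the peak calls themselves, so all values below are descriptions and carry no test. A region without an interval is one where no call reached the authors' threshold, which is not the same as closed chromatin.

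In ATAC-seq the Tn5 transposase inserts sequencing adapters into DNA that nucleosomes and other proteins leave accessible, so that tags pile up at active promoters, enhancers and insulators. Promoters of broadly used genes tend to be open in many cell types, whereas distal elements such as enhancers vary more between cell types and between clones of one cancer. T-ALL arises from developing T cells, and its lines carry different driver lesions that can open or close such elements in 1 line and not in another.

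The study profiled HBP-ALL, CCRF-CEM, DND-41, KOPT-K1, MOLT-4 and TALL-1, all grown in RPMI-1640 with serum and antibiotics, with no drug named in the labels. Each line contributed 1 library of paired-end reads, so no line had a replicate, and a difference between lines cannot be told apart from a difference between libraries. An established line also stands for 1 patient's leukemia and not for a subtype. The peak lists give each peak's position, the authors' fold enrichment over local background and the authors' −log10 p. Positions are in hg19, per the submitters' processing notes. Regions are given by position and no gene is named, because no annotation of hg19 was used here, and for the same reason the line labels were not checked against marker genes.

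The HBP-ALL list held 22055 distinct intervals, against 22367 in CCRF-CEM and 16507 to 19114 in the other 4 lines. Its median interval was 491 bp wide, against 436 bp in CCRF-CEM and 507 to 531 bp in the other 4 lines. Read depth is unknown, since the lists carry no totals. The smallest background that the caller used, which scales with depth, came to 1.23 tags in HBP-ALL, against 1.38 in TALL-1 and 0.694 in CCRF-CEM. All 6 lists ended at a −log10 p of about 5 (lowest values 5.00135 in HBP-ALL and 5.00045 to 5.00276 over all lists).

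HBP-ALL stood apart from the other lines mainly by regions that it alone held. HBP-ALL-only regions made up 21.3% of its 21873 regions (exact 95% interval 20.7 to 21.8%) and 11.6% of all merged regions. CCRF-CEM had 6420 regions of its own, or 28.9% of its regions. The other 4 lines were far below both, with 1428 in DND-41 (8.04% of its regions), 1490 in TALL-1 (9.12%), 1498 in KOPT-K1 (8.34%) and 1825 in MOLT-4 (9.62%). These intervals cover counting error only and not the spread between libraries of 1 line.

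The opposite kind was rare. HBP-ALL alone was missing from 296 of 9349 regions that all 5 other lines held, or 3.17% (exact 95% interval 2.82 to 3.54%), and from 0.738% of all merged regions. CCRF-CEM was missing alone from 971 regions (9.69%) and TALL-1 from 630 (6.51%). DND-41, KOPT-K1 and MOLT-4 were missing alone from 2.38, 2.97 and 2.43% of such regions, and the interval of HBP-ALL overlapped that of KOPT-K1. The count depends on which lines are compared: without CCRF-CEM it was 484 and without TALL-1 it was 523, since a region then needs 4 other lines instead of 5. CCRF-CEM was thus high in both kinds, whereas HBP-ALL, with the lists as deposited, was high in regions of its own and close to the lower lines in missed regions.

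With equal numbers of the strongest intervals taken from every list, HBP-ALL had 2464 regions of its own (15.0%). The same setting gave 3792 for CCRF-CEM (23.1%), 2060 for TALL-1 (12.6%) and 1399 to 1438 for the other 3 lines. The number of calls in a list therefore moved with these counts, and the ratio to TALL-1 narrowed most. The share missed alone was then 4.75% in HBP-ALL, against 4.87% in TALL-1, 14.2% in CCRF-CEM, 1.92% in DND-41, 2.18% in KOPT-K1 and 2.63% in MOLT-4, so HBP-ALL stood beside TALL-1 and above the 3 lowest lines. A −log10 p of at least 10 in all lists gave 2959 HBP-ALL-only regions (18.4%). The private share was then 26.7% in CCRF-CEM and 6.57 to 7.32% in DND-41, KOPT-K1, MOLT-4 and TALL-1. The missed share was 3.06% in HBP-ALL, 2.53% in DND-41, 3.62% in KOPT-K1, 3.66% in MOLT-4, 6.2% in TALL-1 and 9.65% in CCRF-CEM. At this limit HBP-ALL thus stood among the lower lines in missed regions and not beside TALL-1. The same limit on HBP-ALL alone gave 2046, and 716 missed regions. Shortening the other lists also makes regions private that were shared before, so the counts with all lists shortened need not be subsets of the 4654.

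The edge of the rule touched few regions. Of the HBP-ALL-only regions, 138 (2.97%) had an interval of another line within 500 bp, 1 of them directly abutting, and the median distance to an interval of any other line was 24.4 kb. Just outside the rule, 2267 regions joined HBP-ALL with exactly 1 other line. Their intervals overlapped by a median of 250 bp, and in 6 regions the overlap was 10 bp or less. Among the missed regions, 6 had an HBP-ALL interval within 500 bp, the nearest at 69 bp. The median distance from a missed region to the nearest HBP-ALL interval was 25.4 kb and the largest was 878 kb.

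HBP-ALL-only regions were narrow and weak compared with HBP-ALL intervals that other lines shared. Their median width was 307 bp, and widths ran between 191 and 1710 bp. The HBP-ALL interval widened with each further line in the region, to medians of 343, 389, 428, 490 and 709 bp with 1, 2, 3, 4 and 5 other lines. The authors' −log10 p moved the same way, with a median of 9.17 in HBP-ALL-only regions and 10.8, 11.8, 12.8, 15.2 and 25.9 with 1 to 5 other lines.

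Tag pileup at the summit, recovered as a whole number from the deposited fold and p, gave the same order. The median was 14 tags in HBP-ALL-only regions, against 17, 18, 20, 24 and 39 tags with 1 to 5 other lines. The middle 50% of HBP-ALL-only regions lay between 11 and 19 tags, below the 28 to 53 tags of regions shared by all 6 lines. Only 5.09% of the HBP-ALL-only regions had several summits, against 33.2% of the shared ones. Since every list ends at the same threshold, a weak region is more easily called in 1 list and not in another, and how much of the HBP-ALL-only set rests on this was not tested.

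**Figure D1:**
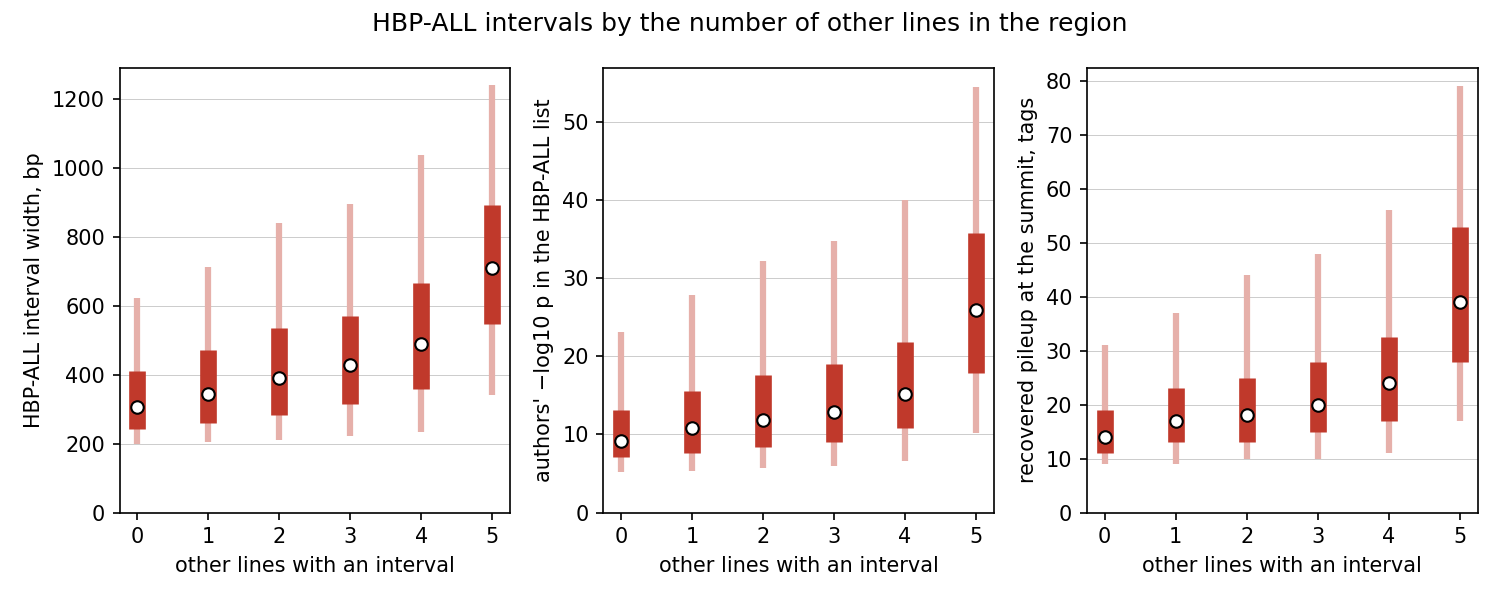
HBP-ALL intervals by the number of other lines that hold the region (x axis), for interval width in bp, the authors' −log10 p and recovered summit pileup in tags (y axes). White points are medians, dark bars the middle 50% and pale bars the 5th to 95th percentiles; median width runs between 307 bp with 0 other lines and 709 bp with 5.

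Within its own list, however, HBP-ALL placed more of its private regions high than most lines did. Ranked by −log10 p, 763 of the 4654 HBP-ALL-only regions (16.4%) lay above the list's median. The same share was 24.6% in CCRF-CEM, 8.49% in MOLT-4, 6.51% in DND-41, 5.94% in KOPT-K1 and 3.49% in TALL-1. The top 10% of the HBP-ALL list took in 2205 regions, of which 20 were HBP-ALL-only, 289 were held with 1 to 4 other lines and 1896 were shared by all 6. These 20 were 0.43% of the HBP-ALL-only regions. CCRF-CEM had 72 private regions in its top 10% (1.12% of its private regions). Each of the other 4 lines, with smaller private sets, had 2 to 4 (0.134 to 0.219%).

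HBP-ALL-only regions lay far from the regions open in all 6 lines. The median distance to the nearest of the 9053 shared regions was 116 kb (95% interval 109 to 123 kb) for HBP-ALL-only regions, against 74.9 kb for the 8166 HBP-ALL regions held with 1 to 4 other lines. Missed regions sat at 61.7 kb (46.8 to 78.1 kb), and shared regions lay 51.4 kb from the next shared one. The order followed the number of lines, and the step between HBP-ALL-only regions and the rest was wider than the counting error of the medians.

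The difference was at the middle and far distances. Within 1 kb of a shared region lay 1.33% of HBP-ALL-only regions, against 1.36% of those held with 1 to 4 other lines, and the intervals overlapped. Within 10 kb of a shared region lay 6.96% of HBP-ALL-only regions, against 10.5% of those held with 1 to 4 other lines. Beyond 1 Mb lay 312 HBP-ALL-only regions (6.70%), against 3.85% of regions with 1 to 4 other lines, 3.04% of missed regions and 1.09% of shared regions. For 17.2% of HBP-ALL-only regions the nearest shared region was more than 500 kb away.

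Private regions of 3 other lines lay at distances like those of HBP-ALL. Their medians were 108 kb in DND-41, 96.6 kb in KOPT-K1 and 110 kb in MOLT-4, against the 116 kb of HBP-ALL. CCRF-CEM stood at 208 kb and TALL-1 at 75.4 kb. The 95% interval of HBP-ALL overlapped those of DND-41 (97.9 to 121 kb), KOPT-K1 (86.0 to 110 kb) and MOLT-4 (101 to 118 kb).

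**Figure D2:**
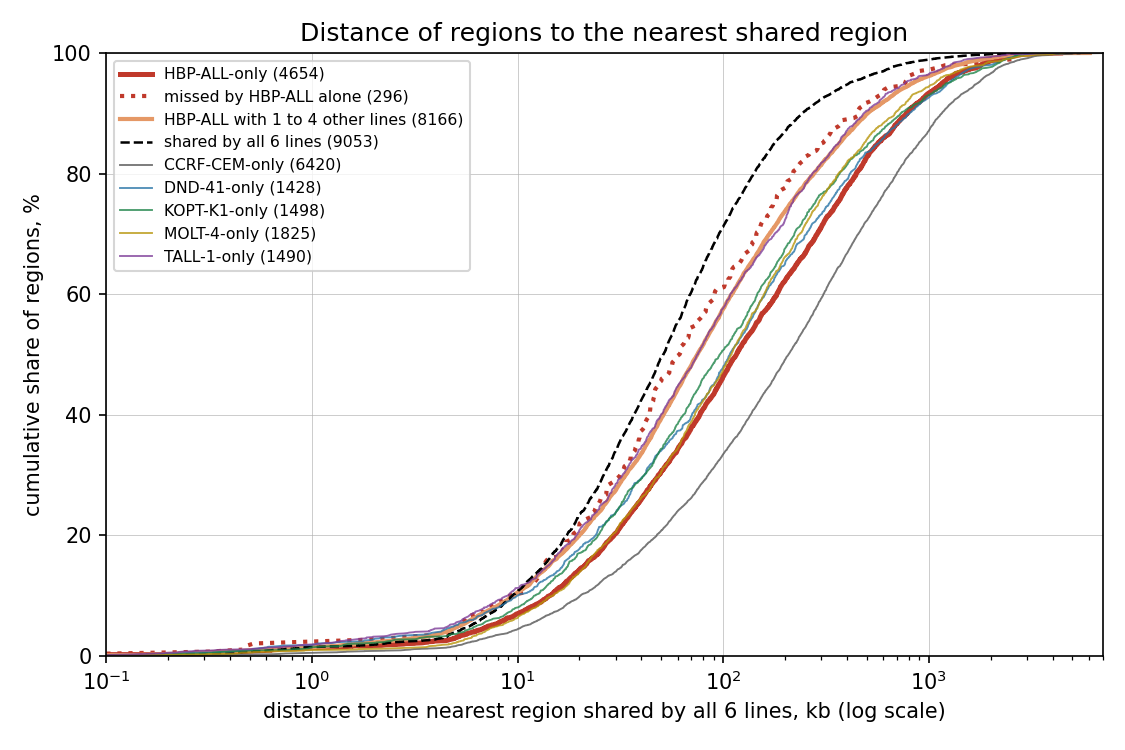
Cumulative share of regions (y axis, %) by distance to the nearest region shared by all 6 lines (x axis, kb, log scale), for HBP-ALL-only regions, regions missed by HBP-ALL alone, HBP-ALL regions with 1 to 4 other lines, shared regions and the private regions of each other line. The curve of HBP-ALL-only regions (median 116 kb) lies right of the missed regions (61.7 kb) and left of CCRF-CEM-only regions (208 kb).

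Neighbouring HBP-ALL-only regions were 342 kb apart at the median and 630 kb at the mean. Part of them lay in groups. With neighbours at most 50 kb apart counted as 1 group, 1212 HBP-ALL-only regions (26.0%) fell into 541 groups, 90 of which had 3 or more members. CCRF-CEM, with more private regions, had 908 groups holding 32.6% of them. The other 4 lines had 106 to 128 groups holding 14.1 to 18.8%, at a private set that was also smaller and more widely spaced (medians of 765 to 919 kb). With equal numbers of intervals per list, HBP-ALL-only regions formed 191 groups at a median spacing of 634 kb.

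The largest group was on chromosome 1. At chr1:62647843-62825033, 7 of the 8 merged regions were HBP-ALL-only, the eighth being shared with CCRF-CEM, and pileups ran between 18 and 40 tags. The next group, at chr2:68598745-68679836, had 6 HBP-ALL-only regions of 11 to 31 tags. Both groups had members above and below 24 tags, the median of all HBP-ALL intervals.

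Another 5 groups had 5 members each. The group at chr2:86997807-87089148 lay among busier surroundings: HBP-ALL held 7 of its 9 merged regions, against 3 each in DND-41 and KOPT-K1, 2 each in MOLT-4 and TALL-1 and 1 in CCRF-CEM. Its members had 17 to 37 tags, and the widest measured 1049 bp. The group at chr8:2851701-2957212 reached 50 tags, the highest of the named groups, and the only other line with intervals there was CCRF-CEM, in 2 regions.

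Groups at chr2:107447726-107486352 and chr5:14200253-14261777 held nothing but HBP-ALL-only regions, and the nearest shared region was 637 kb and 402 kb away. The group at chr10:129090613-129152151 was the reverse case. A shared region lay 0.846 kb from one of its members, and no member exceeded 24 tags.

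Unbroken runs of HBP-ALL-only regions were short. The longest had 6 consecutive regions, at chr5:14145258-14261777, chr7:46592329-47084608 and chr12:63050887-63187932. The chromosome 5 run takes in the group above and spanned 117 kb with 16 to 46 tags, whereas the chromosome 7 run was spread over 492 kb with 9 to 39 tags. The longest such run had 11 regions in CCRF-CEM and 3 to 5 in the other 4 lines.

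The 10 strongest HBP-ALL-only regions were compact, 9 of them with a single summit, and 5 had no shared region within 500 kb. First by −log10 p was chr5:15271645-15272200, with a −log10 p of 54.6 and 60 tags over a background of 3.15 tags, 399 kb from the nearest shared region. On chromosome 16, chr16:76191504-76192023 had 57 tags and a −log10 p of 51.6, and no interval of any other line lay within 438 kb. On chromosome 8, chr8:110609810-110610569 had 65 tags (−log10 p 50.8) and was the widest of the 10 at 760 bp. All 3 ranked above 96.6% of the HBP-ALL list.

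On chromosome 7, chr7:121464289-121464799 had 56 tags, and chr7:11819610-11820168 had 53 tags and was the only one of the 10 with 2 summits. The region at chr13:69544878-69545367 had 63 tags and lay 1740 kb from the nearest shared region, the farthest of the 10. A region at chr16:66508595-66508990 had the most tags, 74, but also the highest background, 8.34 tags. Its window of shared regions was itself high in HBP-ALL (0.41 on the log2 scale explained below), and the part of this level in its strength was not tested.

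The last 3 of the 10 were chr4:182429006-182429493 with 49 tags, chr18:5964923-5965496 with 54 tags and chr1:196067061-196067499 with 52 tags. Their −log10 p values, 42.4 or more, were above the 95th percentile of HBP-ALL-only regions (23.1) and below that of regions shared by all 6 lines (54.5), the first region excepted.

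Regions missed by HBP-ALL alone were of middling strength in the lines that held them. The median pileup at the 296 regions was 20 tags in CCRF-CEM, 24 in TALL-1, 19 in MOLT-4, 24 in DND-41 and 21.5 in KOPT-K1. At regions shared by all 6 lines, the same lines had 31, 44, 36, 40 and 36 tags. The missed regions were therefore weaker than the shared ones in every line, and their median rank was at percentile 38.6 to 48.0 of each list, against percentile 70.2 to 72.7 for shared regions.

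Few missed regions were strong throughout. All 5 other lines ranked the region above their list's median at 22 of the 296 (7.43%, exact 95% interval 4.72 to 11.0%), against 4634 of the 9053 regions shared by all 6 lines (51.2%). For the regions that each other line missed alone, the corresponding share was 18.6% in TALL-1, 10.9% in DND-41, 7.93% in CCRF-CEM, 5.78% in MOLT-4 and 4.69% in KOPT-K1, so HBP-ALL stood in the middle. Chromosome 6 held 4 of the 22 strong missed regions, and chromosomes 10 and 13 held 3 each. Of all missed regions, chromosomes 6, 10 and 13 held 22, 13 and 17, so these counts are too small to show a concentration.

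The clearest absence from the HBP-ALL list was chr9:82186144-82187048. Its pileups were 193 tags in CCRF-CEM, 133 in DND-41, 109 in KOPT-K1 and 83 each in TALL-1 and MOLT-4. It ranked above 91.6% of the list in each of the 5 lines, and the nearest HBP-ALL interval lay 9.74 kb away. The shared regions around it stood at 0.14 on the log2 scale in HBP-ALL, above the line's median.

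Next came chr8:61564327-61565234 with 79 tags in KOPT-K1, 72 in CCRF-CEM, 67 in TALL-1, 65 in MOLT-4 and 61 in DND-41. The region at chr14:100070237-100071872 had 76, 79, 114, 88 and 67 tags in the same lines and was the widest of the 10, at 1636 bp. The windows around these 2 regions stood at −0.10 and −0.08 in HBP-ALL, near the line's median.

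Other named absences lay where HBP-ALL was low over a wider stretch. At chr3:30395265-30396261 CCRF-CEM had 113 tags, but TALL-1 had 21, and the surrounding window stood at −0.96 in HBP-ALL, the lowest on chromosome 3. At chr2:54557473-54558241 pileups ran between 30 tags in MOLT-4 and 84 in DND-41, and the window stood at −0.49. At both, the low HBP-ALL level around the region moved with its absence from the list, and its part in the absence was not tested.

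The remaining 5 named absences were chr6:142872278-142872828 with 33 to 68 tags, chr13:114238593-114239799 with 34 to 87 tags, chr13:35516002-35517021 with 43 to 82 tags, chr10:38644863-38645543 with 28 to 53 tags and chr8:82005798-82006639 with 12 to 68 tags. All 5 windows were somewhat low in HBP-ALL, between −0.34 and −0.17.

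Missed regions seldom lay side by side. Neighbouring missed regions were 5718 kb apart at the median. In the row of regions held by all 5 other lines, 249 of the missed regions stood singly, 19 pairs were adjacent and 3 runs had 3 regions. The runs lay at chr3:71632635-72132536 with 13 to 39 tags, chr13:97762100-98040045 with 15 to 72 tags and chr19:2944706-2977637 with 12 to 62 tags. The windows around them differed, at −0.83, −0.22 and 0.38 in HBP-ALL, so the surrounding level was far below the line's median at 1 of the 3 and above it at another.

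Longer absences appeared once regions held by at least 3 of the 5 other lines were counted. HBP-ALL lacked 2407 of 15540 such regions. Counted the same way, MOLT-4 lacked 2209 of 15512, KOPT-K1 2516 of 15651 and DND-41 2614 of 15812. TALL-1 lacked 3725 of 16132 and CCRF-CEM 3739 of 15853, so HBP-ALL was among the lines that lacked few. The longest runs without HBP-ALL had 6 regions, at chr1:59942947-61543909 and chr12:129399340-131006502, and neither run held a region of all 5 other lines. Next came 5 regions at chr14:106585656-106691980, where HBP-ALL held 1 of 12 merged regions, against 8 in TALL-1, 6 each in DND-41 and KOPT-K1, 4 in MOLT-4 and 2 in CCRF-CEM.

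A run of 5 at chr19:2840964-2977637 included 3 missed regions. There HBP-ALL held 1 of 7 merged regions, against 3 to 6 in each other line. The longest such run was 13 regions in TALL-1, 9 in CCRF-CEM and 6 or 7 in the other 3 lines, so the runs of HBP-ALL were as short as the shortest of the 6 lines.

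The partner of HBP-ALL in regions of exactly 2 lines was most often CCRF-CEM (679) or MOLT-4 (658), followed by TALL-1 (341), KOPT-K1 (331) and DND-41 (258). As a share of each line's 2-line regions, these were 31.2% for CCRF-CEM, 32.9% for MOLT-4, 28.1% for TALL-1, 20.4% for KOPT-K1 and 16.2% for DND-41. Where 4 lines held a region and HBP-ALL did not, the other absent line was TALL-1 in 227 of 712 regions, CCRF-CEM in 187, MOLT-4 in 108, KOPT-K1 in 104 and DND-41 in 86. TALL-1 and CCRF-CEM were also the lines most often missing alone, from 630 and 971 regions. DND-41, MOLT-4 and KOPT-K1 were missing alone from 221, 225 and 277. The order was not the same throughout, since TALL-1 led in absences joint with HBP-ALL and CCRF-CEM in absences alone. Whether any line shares more with HBP-ALL than its own counts would give was not tested.

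HBP-ALL-only regions were spread over all 23 chromosomes, but unevenly. The share of HBP-ALL regions that were HBP-ALL-only was highest on chromosome 18, with 132 of 431 (30.6%, exact 95% interval 26.3 to 35.2%), followed by chromosomes 4 (25.5%) and 8 (25.2%). It was lowest on chromosome 19, with 95 of 937 (10.1%, 8.28 to 12.3%), followed by chromosomes 17 (14.3%) and 22 (16.3%). The intervals of chromosomes 18 and 19 were far apart, though these chromosomes were picked as the highest and lowest of the 23.

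On chromosomes 19, 17 and 22, where its own share was lowest, HBP-ALL stood above every other line. On chromosome 19 the private share was 10.1% in HBP-ALL, against 1.5 to 6.59% in the other lines, and on chromosome 17 it was 14.3%, against 3.57 to 10.1%. HBP-ALL ranked first of the 6 lines on chromosomes 15, 16, 17, 19 and 22, and second on the other 18. Low share and first rank did not always go together. On chromosomes 14 (17.2%) and X (18.3%), the next lowest, it ranked second, and on chromosome 15 it ranked first at 22.9%. On chromosomes 18, 4 and 8 it stood below CCRF-CEM, which had 38.7, 39.3 and 34.5%.

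Missed regions had another distribution. Their share was highest on chromosome 4, with 32 of 395 (8.10%, exact 95% interval 5.61 to 11.2%), chromosome 13 with 17 of 217 (7.83%, 4.63 to 12.2%) and chromosome 20 with 12 of 234 (5.13%, 2.68 to 8.79%). It was lowest on chromosome 15, with 1 of 275 (0.364%, 0.00921 to 2.01%), then chromosome 7 (1.56%) and chromosome 12 (1.83%). Chromosome 4 was high for both kinds.

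**Figure D3:**
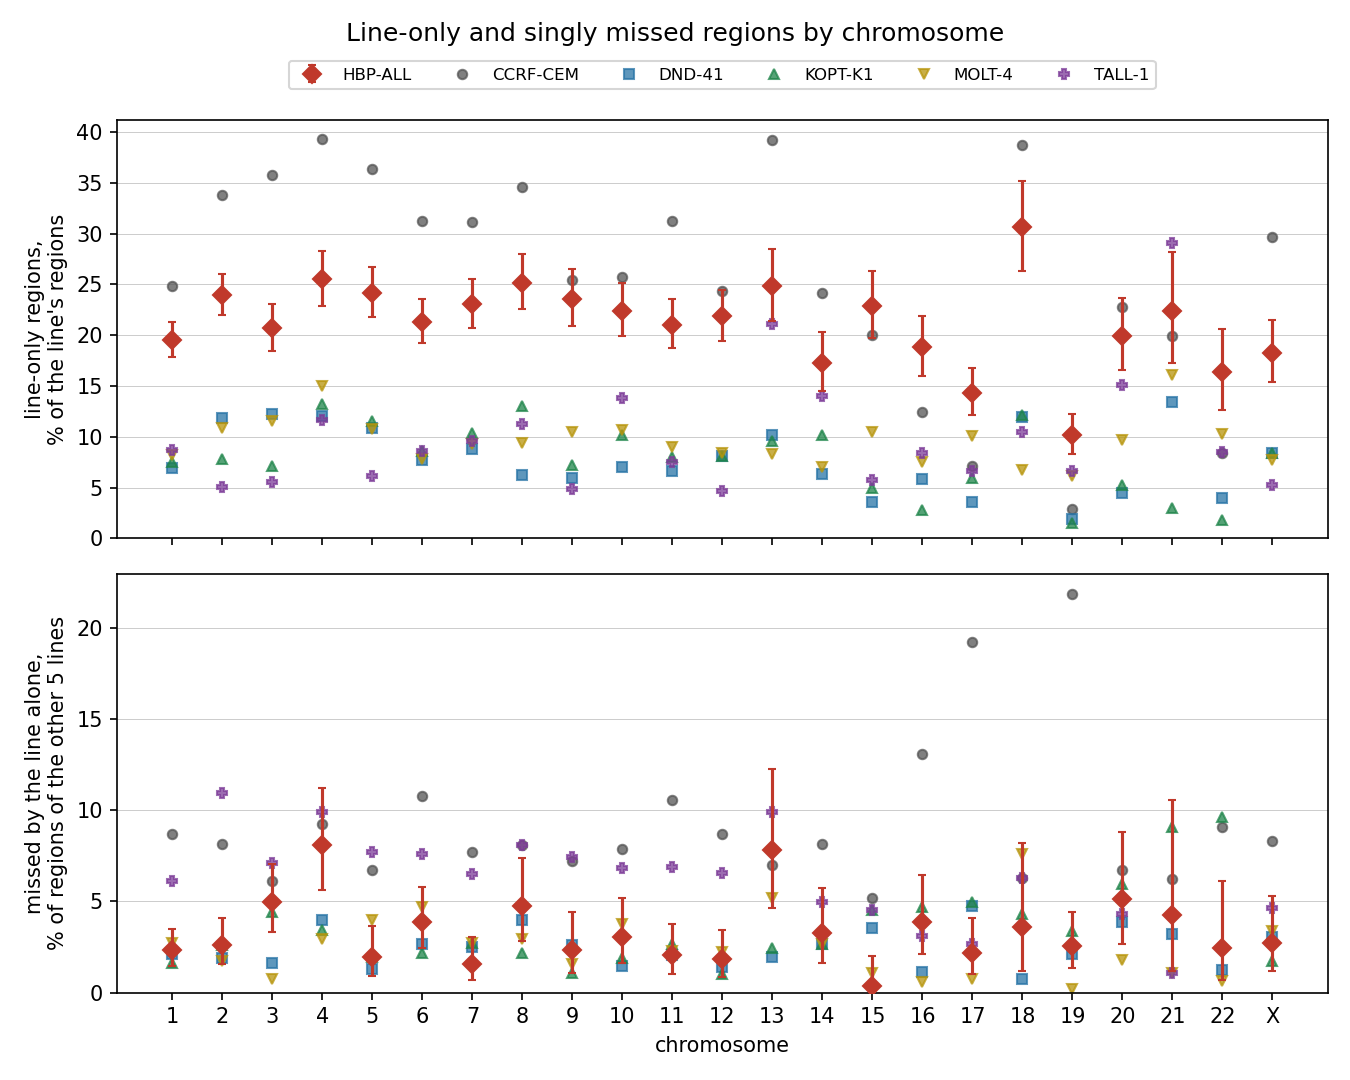
Line-only regions as a share of the line's regions (upper panel, %) and regions missed by the line alone as a share of regions held by the other 5 (lower panel, %) on each chromosome (x axis). Red diamonds are HBP-ALL with exact 95% intervals and the other symbols are the other lines; HBP-ALL-only shares run between 10.1% on chromosome 19 and 30.6% on chromosome 18, and the missed share on chromosome 15 is 0.364%.

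The missed regions of chromosomes 4 and 13 lay mostly on 1 side of the chromosome's largest gap between regions. Beyond chr4:52708766, HBP-ALL missed 28 of 273 regions (10.3%), against 4 of 122 (3.28%) before the gap. Beyond chr13:56922847, it missed 14 of 93 (15.1%, 8.48 to 24.0%), against 3 of 124 (2.42%, 0.502 to 6.91%) before the gap, which on this acrocentric chromosome is not the centromere. This was not particular to HBP-ALL. TALL-1 missed 12.2% beyond the gap and 4.84% before it on chromosome 4, and 18.6% and 3.20% on chromosome 13. On both chromosomes the share was higher beyond the gap in every line except CCRF-CEM on chromosome 13 (5.95% beyond, 7.63% before). The level of each line at shared regions nearby was compared next.

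For this, each line's pileup at 9039 regions shared by all 6 lines was put on a log2 scale. The mean of the 6 log2 values of the region was subtracted, and the result was shifted so that the line's median is 0. Values below 0 mean fewer tags in HBP-ALL than its typical share at such regions. Medians were formed over 894 windows of about 10 consecutive shared regions. Pileup counts tags, so the number of DNA copies, the share of cells in which a site is open and the accessibility of each copy cannot be told apart in it.

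Missed regions were more frequent where HBP-ALL was low at the shared regions around them. Where the window's relative pileup was at or below −0.4, HBP-ALL alone missed 37 of 570 regions held by the other 5 lines (6.49%, exact 95% interval 4.61 to 8.84%). The share was 4.57%, 2.59% and 2.05% in the next 3 classes (above −0.4, −0.1 and 0.1). Above 0.4 it was 5 of 280 (1.79%, 0.582 to 4.12%). The share thus fell from class to class, and the lowest and highest classes did not overlap in their intervals. In every other line, too, the lowest class of its own relative pileup had a larger missed share than the highest: between the lowest and the highest class the missed share ran from 16.5 to 6.96% in CCRF-CEM, 8.97 to 1.08% in DND-41, 6.45 to 2.26% in KOPT-K1, 6.19 to 0.401% in MOLT-4 and 11.0 to 3.44% in TALL-1.

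HBP-ALL-only regions followed no such order. They made up 17.7, 24.8, 21.1, 18.2 and 22.5% of HBP-ALL regions in the same 5 classes, low to high. MOLT-4 had no order along its own relative pileup either, with 8.98 to 10.2% in the 5 classes. The private share climbed with every class in CCRF-CEM (7.82 to 43.0%), DND-41 (3.74 to 15.6%) and KOPT-K1 (3.16 to 15.1%). In TALL-1 it was 6.07% in the lowest class and 14.1% in the highest, with 1 step down between. The class edges were set after the values had been seen.

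**Figure D4:**
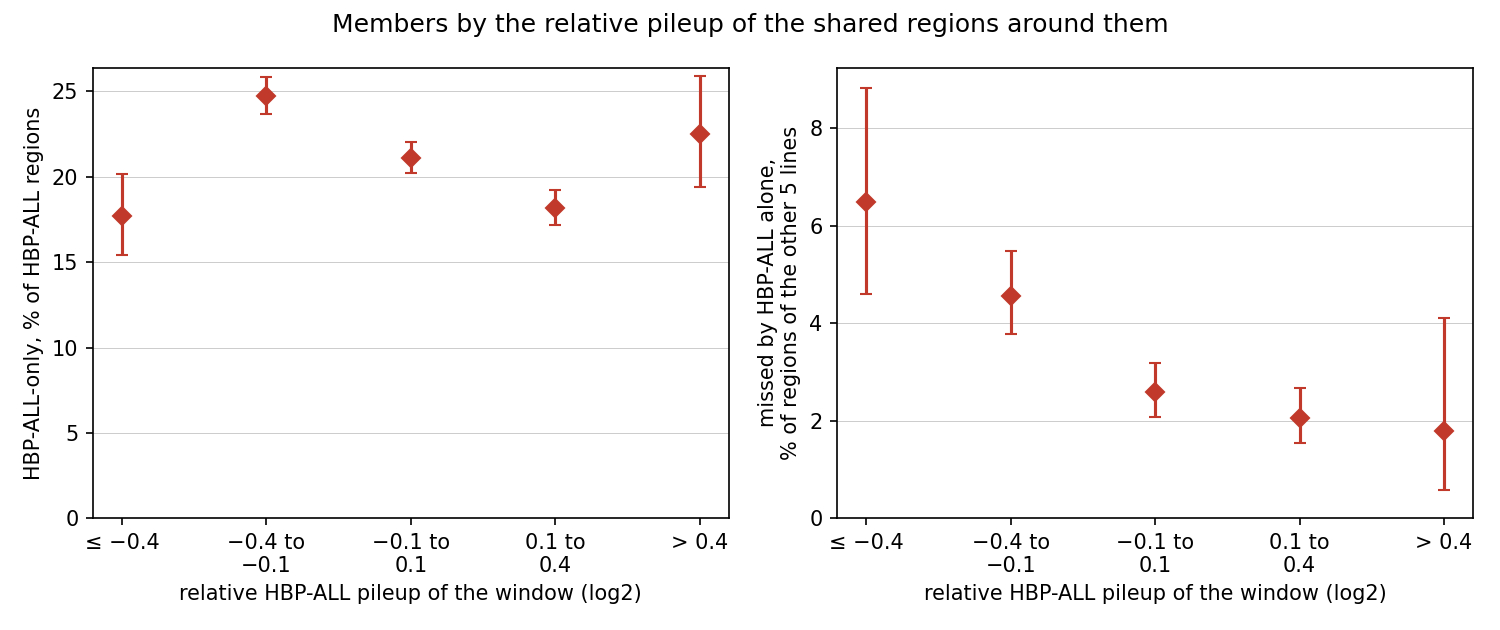
Share of HBP-ALL regions that were HBP-ALL-only (left, %) and share of regions held by the other 5 lines that HBP-ALL alone missed (right, %), by the median relative pileup of HBP-ALL in the window of shared regions around them (x axis, log2 classes). Diamonds are shares and bars exact 95% intervals; the missed share is 6.49% in the lowest class and 1.79% in the highest, and the HBP-ALL-only share has no steady direction.

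Whole stretches of chromosomes stood low in HBP-ALL. On chromosome 3, the side before the largest gap (which begins at position 90493009) had a median relative pileup of −0.66 in HBP-ALL, against −0.14 to 0.33 in the other lines. On that side 55 of 421 HBP-ALL regions were HBP-ALL-only (13.1%), and HBP-ALL missed 21 of 264 (7.95%). Beyond the gap the relative pileup was 0.01, 199 of 805 regions were HBP-ALL-only (24.7%), and 7 of 302 were missed (2.32%). The 2 sides of chromosome 3 thus differed in both kinds, in opposite directions.

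CCRF-CEM showed no such contrast on chromosome 3, with private shares of 36.1% before the gap and 35.5% beyond it. In the other lines the share was 5.76 to 14.2% before the gap and 5.31 to 10.8% beyond it. HBP-ALL held 421 regions before the gap, fewer than every other line except TALL-1 (399), and 805 beyond it, more than every other line except CCRF-CEM (904). The low pileup and the small number of HBP-ALL-only calls lay in the same place, and the part of one in the other was not tested.

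Runs of at least 3 consecutive windows beyond ±0.4 gave 5 low and 3 high stretches. The low ones were chr2:30369246-55845237 (−0.66), chr3:3168172-38207412 (−0.70), chr3:41240462-97758709 (−0.61), chr5:171710437-176924951 (−0.54) and chr16:2826865-9186516 (−0.53). The high ones were chr15:46240264-56286181 (0.49), chr15:78466635-86338440 (0.42) and chr16:20752471-28835804 (0.86). The second stretch on chromosome 3 runs across the gap. Together the stretches covered 129 Mb of low and 26.0 Mb of high level.

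Over the low stretches, 87 of 639 HBP-ALL regions were HBP-ALL-only (13.6%, exact 95% interval 11.1 to 16.5%). Over the high stretches it was 54 of 206 (26.2%, 20.3 to 32.8%), and over all other windows 21.5%. Missed regions ran the other way, with 28 of 398 (7.04%) in low stretches, 1 of 91 (1.10%) in high ones and 3.01% elsewhere. The windows elsewhere include those beyond ±0.4 that were not in such runs. Over all windows at or below −0.4 the HBP-ALL-only share was 17.7%, and over all windows above 0.4 it was 22.5%. The contrast in this share was thus wider within the stretches than over all windows of the same level. Chromosome 3 itself supplied 58 of the 87 HBP-ALL-only and 21 of the 28 missed regions of the low stretches. The 3 low stretches on other chromosomes had 29 of 225 HBP-ALL-only (12.9%) and 7 of 139 missed (5.04%), with 0 of 30 missed on chromosome 5. All 8 stretches together held 141 of the 4654 HBP-ALL-only and 29 of the 296 missed regions.

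Chromosome 15 was high in HBP-ALL along its whole length. Its median relative pileup was 0.39, and each of its 27 windows was above 0. A single missed region was found there, whereas the HBP-ALL-only share of 22.9% was near that of the whole list.

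Chromosome 16 alternated between low and high. Its 34 windows ran between −0.73 and 1.65, the widest range of any line on any chromosome. The highest window, chr16:30418515-30760088, stood at 1.65, between neighbours at −0.37 and 0.92. A second one, chr16:66785095-67515512, stood at 1.24, and chr16:68002140-69221642, shortly after it, at −0.73.

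On this chromosome the HBP-ALL-only share followed the level. It was 18 of 150 (12.0%, exact 95% interval 7.27 to 18.3%) in the 9 windows at or below −0.4, 65 of 372 (17.5%) in the 18 windows between, and 49 of 179 (27.4%, 21.0 to 34.5%) in the 7 windows above 0.4. Of these 49, 18 lay in a single window, chr16:57768984-66731092, which stood at 0.41, just above the edge. In the same classes of windows, low to high, the other lines had private shares of 0.649 to 8.82%, 3.93 to 15.1% and 2.88 to 11.8%. The range of the other lines was thus also lowest in the low windows. HBP-ALL missed 8 of 102 regions in the low windows (7.84%), 3 of 185 between (1.62%) and 3 of 73 in the high ones (4.11%), so the missed share did not follow the level there.

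**Figure D5:**
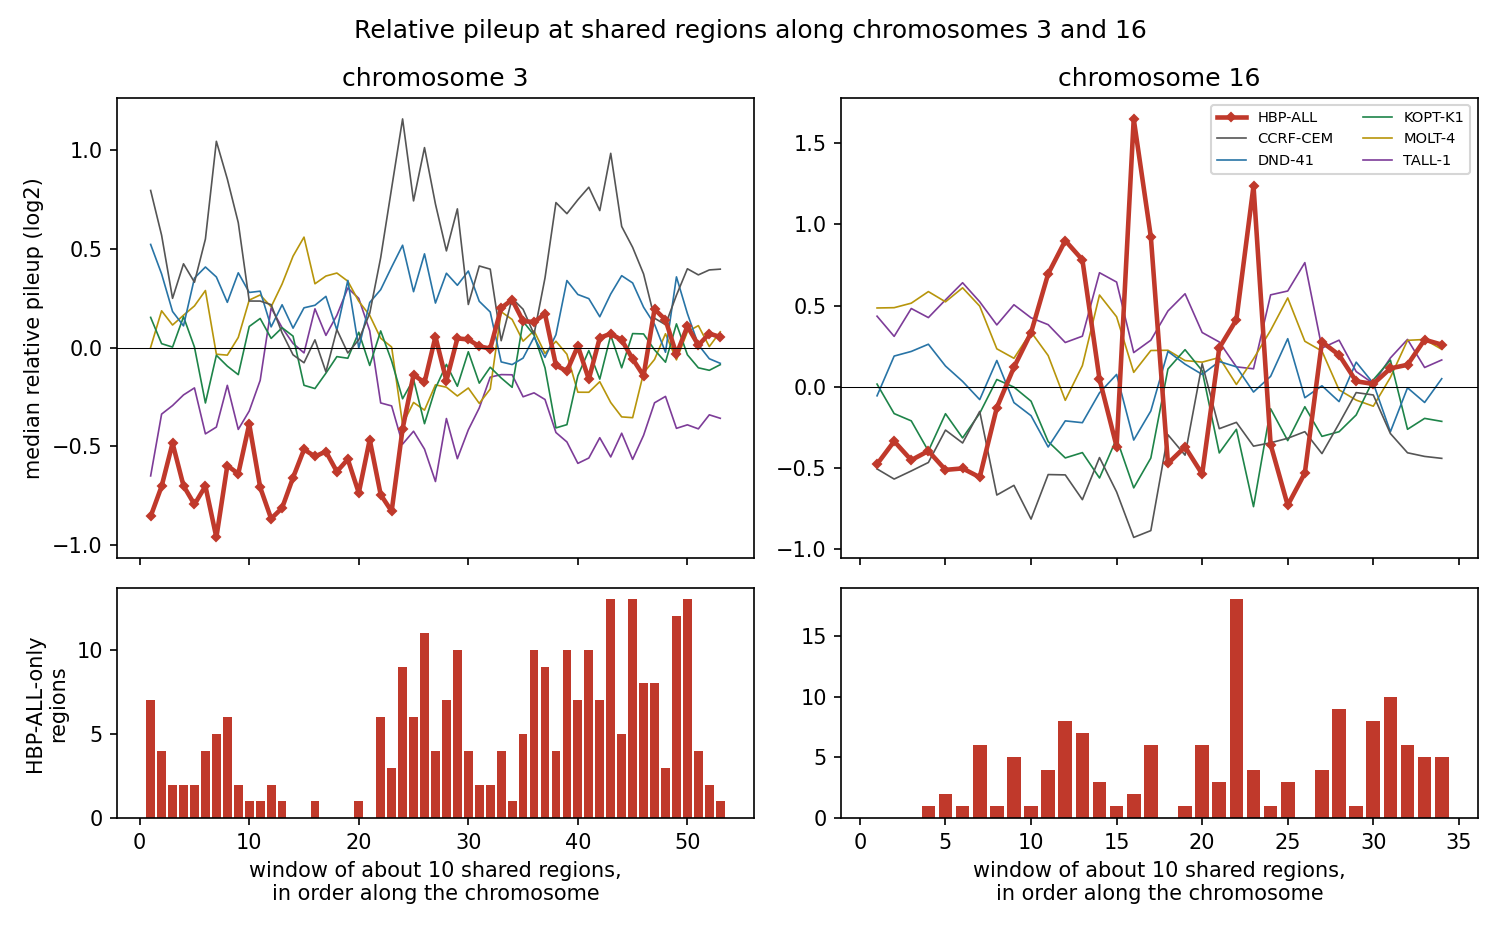
Median relative pileup of each line (upper panels, log2) and number of HBP-ALL-only regions (lower panels, bars) in consecutive windows of about 10 shared regions along chromosomes 3 and 16 (x axis, window order). On chromosome 3 the HBP-ALL line (red, diamonds) stays at or below −0.39 in the first 24 windows, and on chromosome 16 it alternates between −0.73 and 1.65.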

How the data were processed

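ATAC-seq reads of 6 T-ALL lines, 1 library each, were turned into peak lists by the authors. Bowtie2, Picard, SAMtools, MACS2 (2.1.1.2016030) and hg19 are named per the submitters' processing notes, while the settings used are not stated in the labels or files read here. The deposited fold enrichment and −log10 p are the authors' values for each peak, compared with local background, and the deposited score is the authors' peak score, which was not used for any value. Total reads are not in the lists, so depth is unknown and no value is scaled to it.

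Intervals of chromosomes 1 to 22 and X with several summits were joined and the strongest summit kept. Intervals of different lines that share 1 bp or more became 1 region. Distances run edge to edge. The whole pileup at a summit was solved from the deposited fold and −log10 p (Poisson, tolerance 0.001 on −log10 p, pileups of 250 or more not tried) and was found for 99.92 to 99.96% of intervals. Centring removed a median of 0.02 (log2) in HBP-ALL. Merging, distances and the recovery were tested on simulated data. Intervals of shares are exact (Clopper-Pearson) and those of medians come from order statistics. Python 3.11.15 with numpy 2.4.6, pandas 2.3.3 and scipy 1.17.1 was used. With 1 library per line, no difference has a replicate check. No test was run beyond a screen of HBP-ALL values for distance from the other lines.

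The members and lists were chosen with earlier results of these data known. The regions named were the 10 HBP-ALL-only regions with the highest −log10 p, the 10 missed regions with the highest median rank in the 5 other lists, the 5 largest groups, the 3 longest runs of each kind and the 3 highest and 3 lowest chromosomes, with ties kept. Runs of missed regions, strong missed regions, windows, classes and stretches were added after the values were seen. Alternatives changed the threshold, the number of intervals, the merging, the overlap, the gap within groups and the lines compared.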

Additional observations from a re-analysis of the deposited data

Results flagged for a closer look

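The stretch of low HBP-ALL level on chromosome 3 that begins at position 41240462 stood apart from all other lines. Its median relative pileup was −0.61 in HBP-ALL, against −0.05 to 0.26 in the 5 other lines, and the gap to the nearest line was 0.646 of the range over the 6 lines. It was 1 of 87 HBP-ALL values screened for distance from the other lines, and it was itself picked as a low stretch. Chance alone sets any of the 6 lines apart in about 1 in 20 groups of values that were not picked. That rate does not hold for a stretch picked for its low level in HBP-ALL. HBP-ALL-only regions made up 11.1% of HBP-ALL regions there, against 5.48 to 37.2% private regions in the other lines.

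The HBP-ALL list also held 34 entries on the mitochondrial chromosome, which the comparisons leave out, against 28 to 31 in the other lists. It was also the longest list, with 27696 entries in all, against 20468 to 24808 in the others. The larger mitochondrial count is therefore not a larger share shown for HBP-ALL. The mitochondrial entries lay in 6 intervals, against 5 or 6 in the other lists.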

How the results depend on the processing

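Taking equal numbers of the strongest intervals gave 2464 HBP-ALL-only regions (15.0%), a missed share of 4.75%, a median distance of HBP-ALL-only regions to shared regions of 151 kb, a median width of 371 bp, 191 groups and a spacing of 634 kb. A −log10 p of at least 10 in all lists gave 2959 HBP-ALL-only regions (18.4%) at 151 kb. The missed share was then 3.06%, with missed regions at 93.0 kb. HBP-ALL-only regions had a width of 383 bp, 262 groups and a spacing of 505 kb. The same limit on the HBP-ALL list alone gave 2046 HBP-ALL-only regions (12.7%), 716 missed regions (7.66%), a distance of 153 kb, a width of 370 bp, 128 groups and a spacing of 784 kb. The shorter lists hold fewer weak intervals by construction. Windows of 250 bp on each side of summits set the width to 501 bp by construction, and groups with gaps up to 20 kb numbered 281. Counting as shared only a larger overlap gave 4832 private intervals. This is 21.9% of the 22055 HBP-ALL intervals and is counted over intervals, not over regions.

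Leaving out each other line in turn gave private shares of 22.5 to 24.4% and 382 to 523 missed regions (3.96 to 5.13%). Median distances of HBP-ALL-only regions were then 99.8 to 110 kb, widths 307 to 314 bp and spacings 297 to 324 kb, with 594 to 678 groups. Merging intervals up to 500 bp apart moved none of the 9 values recomputed beyond its counting error or 1.5-fold. The relative pileups of chromosomes 3 and 15 moved by less than their spread without centring and with the chromosome left out of the median. No paired analysis was possible because each line has 1 library. No test was run beyond the screen for distance from the other lines.

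Limits are the single library per line, the unknown depth and the threshold shared by all lists. A weak site can be called in 1 line and fall just short in another, so HBP-ALL-only regions with few tags are the least secure. The missed regions number 296, and shares of them within single chromosomes rest on 1 to 32 regions.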
